A study of Homo sapiens with 2 samples.

Results

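Clusters of RUNX1 peaks are stretches of the genome where several RUNX1 binding peaks lay close together. They were chosen by the positions of the peak summits alone: a peak was a member when at least 3 other summits lay within 25 kb on either side of its own summit on the same chromosome, and members less than 25 kb apart were joined into 1 cluster. Of 13591 peaks, 1072 (7.89%) were members, and they formed 288 clusters. The 17 peaks inside RUNX1 itself, which the cells carried as an added transgene, and 46 peaks near 8 Mb on chromosome 21 were left out beforehand, which left 12456 other peaks.

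The peaks came from chromatin immunoprecipitation followed by sequencing (ChIPseq) of MCF10A, a line of immortal but non-tumorigenic mammary epithelial cells of human origin, grown with EGF, insulin, hydrocortisone and cholera toxin. The line had been deleted for RUNX1 and carried a lentiviral RUNX1 that doxycycline switches on. Knockout cells of the study were grown up from single colonies after CRISPR targeting, and the labels do not say how many clones this line holds. Both libraries came from such cells after doxycycline at 1 µg/ml for 24 hours, 1 immunoprecipitated with an anti-RUNX1 antibody and 1 of input DNA with no antibody. All binding described is therefore that of induced RUNX1 in an engineered line, with no library of cells without induction analysed here. With 80338845 kept ChIP tags, 87410774 kept input tags and no replicates, no test was made, and every interval covers counting error only. Intervals of shares of peaks treat peaks as independent, although members of 1 cluster lie together, so these intervals are too narrow.

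RUNX1 is a transcription factor whose Runt domain binds DNA and whose partner CBFB strengthens that binding. The short sequence TGTGGT and its reverse complement ACCACA form the core of its site, which is often found in enhancers beside sites of other factors, AP-1 among them. Groups of neighbouring regions bound by lineage factors are a known feature of genes that define a cell type.

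The study made the ChIPseq to ask whether RUNX1 binds at NOTCH3. It did not detect binding of endogenous RUNX1 at that locus. In the inducible line it reported a binding site there, and it proposed that RUNX1 may regulate NOTCH3 directly. NOTCH3 had 1 peak in or within 5 kb, but no clustered peak. A few clustered summits lay in promoters (250 bases before to 50 after a transcription start) whose RefSeq sequence was at hand, so the letters under the peak can be shown. They are shown because they put the RUNX letters beside a measured summit. The capitals mark TGTGGT or ACCACA, and each line is written 5′ to 3′ on the strand of its gene. The first is the whole stretch before the start of IVL, which encodes involucrin, a protein of the cornified envelope of squamous epithelium, from chr1:152908296-152908545 (GRCh38, plus strand).

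IVL: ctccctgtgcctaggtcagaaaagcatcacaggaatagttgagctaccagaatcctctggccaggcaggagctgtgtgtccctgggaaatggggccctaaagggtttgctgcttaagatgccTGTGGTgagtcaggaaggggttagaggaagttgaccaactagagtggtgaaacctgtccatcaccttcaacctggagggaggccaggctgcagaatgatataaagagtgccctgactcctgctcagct

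The IVL summit lay 132 bases before the start and 4 bases from the capitals. The letters TGANTCA, the core that AP-1 factors bind, begin 5 bases after the start of TGTGGT, so the last base of one is the first of the other. The peak was low, with a pileup (extended ChIP tags over the summit) of 19 tags and a fold enrichment over the local background of 3.57.

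The next stretches are those around the motif at the summits closest to it in other promoters. They come from FKBP5, a co-chaperone of the glucocorticoid receptor, at chr6:35728739-35728804 (minus strand), from the long noncoding RNA gene LINC02537 at chr6:43852544-43852583 (minus strand), and from the noncoding LOC105374955 at chr6:18496624-18496689 (plus strand).

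FKBP5: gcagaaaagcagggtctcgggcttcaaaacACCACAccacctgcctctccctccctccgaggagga

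LINC02537: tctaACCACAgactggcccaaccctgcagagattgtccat

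LOC105374955: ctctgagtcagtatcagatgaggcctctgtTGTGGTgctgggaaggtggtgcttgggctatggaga

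The FKBP5 summit fell on the motif (distance 0 bases) and had 12 tags. The LINC02537 summit was 1 base from it and had 29 tags with a fold enrichment of 9.25. At LOC105374955 the distance was 26 bases, the pileup 13 tags, and a TGANTCA match began 27 bases from the motif. At all of these FKBP5, LINC02537 and LOC105374955 peaks the input level, which is the local background that the peak caller used divided by its genome-wide background, was between 1.00 and 1.02.

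In all, 20 clustered summits (1.87% of clustered peaks, beside 2.86% of other peaks) lay in 23 promoter windows of the 34943 in the table. Some were overlapping windows of the same gene, as at S100A8. The windows of LINC01303 and LINC03033 share 1 summit and 1 TGTGGT, so the windows are not all independent. TGTGGT or its reverse complement occurred in 9 of the 23 (39.1%, 95% Wilson interval 22.2 to 59.2). Among promoters holding a summit of another peak it occurred in 148 of 412 (35.9%, 31.4 to 40.7), and among all windows in 13.1%. The intervals of clustered and other peaks overlapped widely. The longer TGTGGTT occurred in 5 of 23 windows (21.7%), in 22.3% of the promoters with another summit and in 4.27% of all.

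The variant TGCGGT was found in 0 of 23 windows with a clustered summit (the Wilson interval reaches 14.3%), against 164 of 412 with another summit (39.8%, 35.2 to 44.6) and 7.27% of all. TGANTCA was in 6 of 23 (26.1%, 12.5 to 46.5), 44 of 412 (10.7%) and 7.72% of all. The windows with a clustered summit held fewer CpG dinucleotides, with a median of 12 against 24 for other summits and 14 for all, and a median GC content of 55.7% against 62.8% and 58.7%. TGCGGT contains a CpG, and its part in the difference was not tested. For genes with a clustered peak anywhere in or within 5 kb, 30 of 294 promoters held TGTGGT (10.2%, 7.24 to 14.2), beside 11.3% of all promoters of protein-coding genes.

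Several promoters with clustered summits lacked TGTGGT in the window. They included S100A12 (39 tags at 18 bases after the start), a calcium-binding alarmin, and DUSP1 (19 tags at 41 bases after the start), a phosphatase that switches off MAP kinases. A missing match says only that these letters are not in this window.

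The number of neighbours fell off steadily across the list. No other summit lay within 25 kb of 6940 peaks, 3767 had 1 and 1749 had 2. Membership began with 645 peaks that had exactly 3 neighbours, followed by 235 with 4 and 192 with 5 or more. The highest number was 14, reached by 6 peaks. The plot of peaks by number of neighbours shows no step where membership begins.

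**Figure D1:**
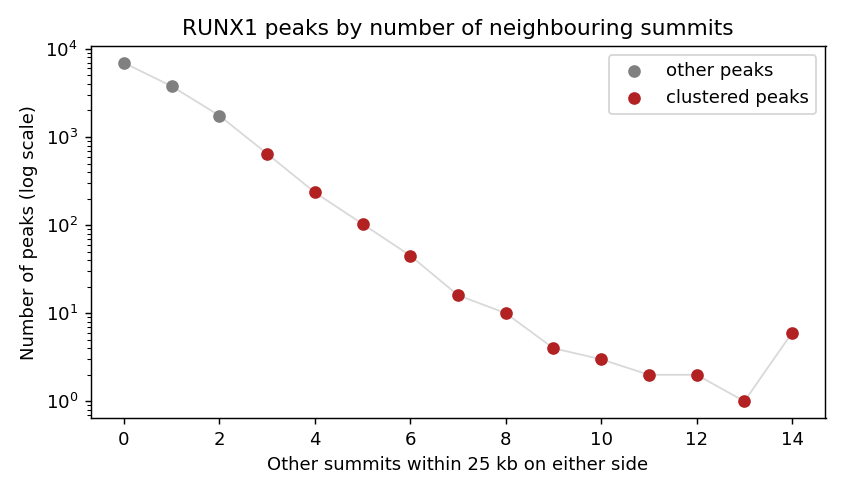
Number of RUNX1 peaks (log axis) against the number of other summits within 25 kb on either side; grey points are other peaks and red points are clustered peaks. The counts fall from 6940 peaks with no neighbour to 645 with 3, and 6 peaks at the far right share the highest number, 14.

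The peaks just inside and just outside the threshold looked alike in height. With exactly 3 neighbours the median pileup was 18 tags, the median fold enrichment 5.06 and the median width 164 bp, and with exactly 2 neighbours the values were 19 tags, 5.22 and 162 bp. Over all clustered peaks the median pileup was 19 tags (quartiles 16 and 24, maximum 65), beside 18 (15 and 22, maximum 110) for other peaks. The median fold enrichment was 5.08 beside 5.06, and 41 clustered peaks (3.82%) and 468 others (3.76%) had a fold enrichment of at least 10. Clustered peaks were a little wider, with a median of 164 bp beside 153 bp. The tallest of the peaks kept lay outside clusters.

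Most clusters were small. Of the 288, 115 had 4 members, 36 had 5 and 39 had at least 6. A cluster can have fewer than 4 members because a neighbour that counts toward the rule may not be a member itself, and 58 clusters had 1 member. The 190 clusters of at least 4 members held 918 of the 1072 peaks and spanned a median of 19.1 kb between the outer summits (quartiles 11.5 and 24.0, range 1.22 to 66.0 kb). A further 308 peaks that were not members lay within 25 kb of one.

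Within clusters, neighbouring summits were often close. The median distance between consecutive members was 3.09 kb, the smallest was 109 bp, and 226 of 784 distances (28.8%) were under 1 kb. The list does not show whether such near summits mark separate bound sites, and joining peaks within 1 kb left 556 clustered peaks. Heights within a cluster were uneven but rarely ruled by 1 peak. In clusters of at least 4 members the tallest was a median 1.89 times as high as the lowest, and in clusters of at least 2 it was 1.20 times as high as the next, with 7 clusters reaching 2 times.

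**Figure D2:**
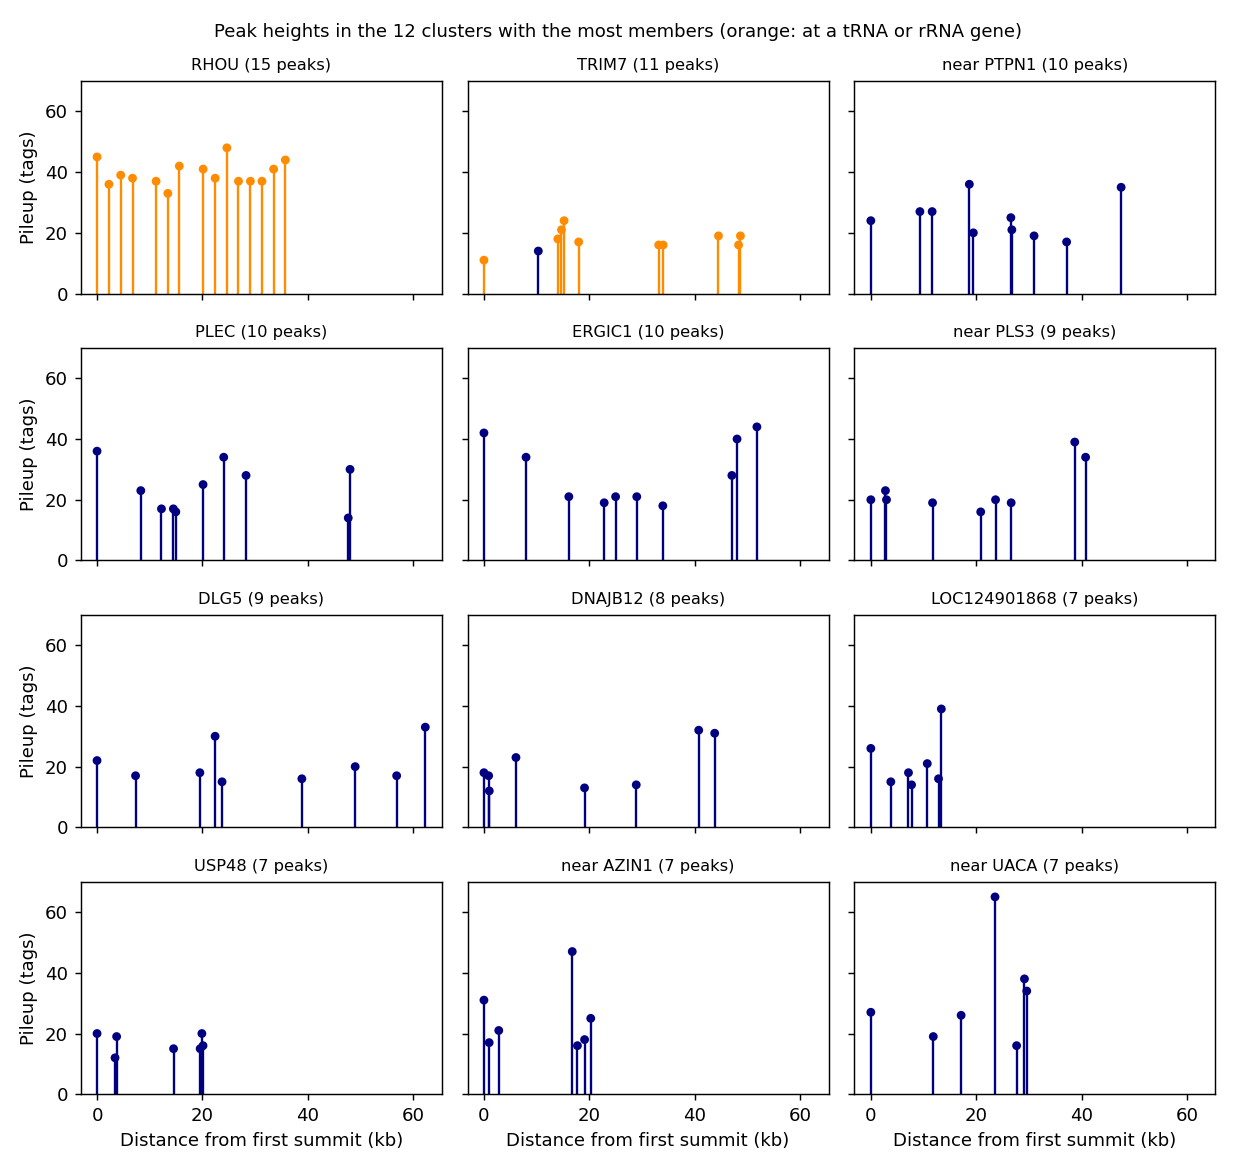
Pileup in tags (vertical axis) of each member against its distance in kb from the first summit (horizontal axis) in the 12 clusters with the most members; each stem is 1 peak, and orange stems are peaks at a tRNA or rRNA gene. All 15 peaks of the RHOU cluster are orange and of like height, 33 to 48 tags, while the cluster near UACA has 1 peak of 65 tags above the rest.

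The clusters with the most members lay at several kinds of place: repeated small RNA genes, long genes with peaks along their bodies, and stretches between genes. The 12 largest held 110 peaks, and 8 of the 12 overlapped a protein-coding gene. A cluster overlaps a gene here when the span between its outer summits touches it, even with no summit inside. At TRIM7 0 of 11 summits were inside a gene, at RHOU 1 of 15, at DNAJB12 1 of 8 and at LOC124901868 1 of 7. The map of peak heights in these 12 clusters shows how differently they were built.

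The largest of those within genes were in PLEC, ERGIC1 and DLG5. PLEC encodes plectin, which ties keratin filaments to hemidesmosomes. Its cluster on chromosome 8 (143928437 to 143976469, GRCh38) had 10 peaks, all inside the gene, with pileups of 36, 23, 17, 17, 16, 25, 34, 28, 14 and 30 tags from left to right. The high ones stood at the outer ends and in the middle, and fold enrichment ran from 3.21 to 11.6. ERGIC1, a protein of traffic between endoplasmic reticulum and Golgi, also had 10 peaks, all inside the gene (chromosome 5, 172853135 to 172904955), at 42, 34, 21, 19, 21, 21, 18, 28, 40 and 44 tags. Both ends were high and the middle low. In DLG5, a scaffold protein of epithelial polarity on chromosome 10 (77850260 to 77912577), 9 peaks had 22, 17, 18, 30, 15, 16, 20, 17 and 33 tags, so 2 stood above an otherwise even row.

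PLEC and ERGIC1 lie on chromosome segments with a raised input level, where the input level of their members ran from 1.00 to 2.92 and from 1.38 to 2.09. In DLG5 it ran from 1.00 to 1.67. One input tag over a summit is worth 0.417 times the genome background, so a level of 1.25, 1.67 or 2.09 can rest on 3, 4 or 5 input tags and is imprecise for a single peak.

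The largest cluster with no gene inside lay 59.0 kb from PTPN1, a tyrosine phosphatase that acts on the insulin receptor, on chromosome 20 (50403895 to 50451412). Its 10 peaks had 24, 27, 27, 36, 20, 25, 21, 19, 17 and 35 tags, and input levels of 1.00 to 1.67. All 10 were still clustered when only peaks of a fold enrichment of at least 5 were kept, which held for no other of the 12 largest. The cluster near UACA, a regulator of apoptosis 161.6 kb away on chromosome 15 (70463306 to 70492906), had 7 peaks at 27, 19, 26, 65, 16, 38 and 34 tags. Its tallest peak, at 70486544 to 70487323, was among the 2 tallest clustered peaks, with 65 tags (exact 95% Poisson interval 50.2 to 82.8), a fold enrichment of 20.6, which was the highest of any clustered peak, and an input level of 1.00.

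DNAJB12, a co-chaperone of the endoplasmic reticulum on chromosome 10 (72291283 to 72335087), had 8 peaks at 18, 17, 12, 23, 13, 14, 32 and 31 tags, 1 of them inside the gene. LOC124901868 on chromosome 8 had 7, between 14 and 39 tags. USP48, a deubiquitinase on chromosome 1 (21768454 to 21788575), had 7 even peaks of 12 to 20 tags. The cluster 17.7 kb from AZIN1, an inhibitor of antizyme, had 7 peaks of 16 to 47 tags on chromosome 8 (102788320 to 102808597) and overlapped the noncoding gene GASAL1.

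The cluster that lay 196.2 kb from PLS3 was the single cluster of chromosome X (115847029 to 115887801) and overlapped the noncoding genes DANT1 and DANT2, which flank a large tandem repeat. Its 9 peaks had 20, 23, 20, 19, 16, 20, 19, 39 and 34 tags. The 2 tallest had the highest input levels, 5.84 and 3.34, and fold enrichments of 2.88 and 4.19.

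Height picked out other places. The 12 clusters with the tallest member shared 2 with the 12 largest, those of RHOU and near UACA, and 8 of them overlapped a protein-coding gene. In COL4A2, a chain of basement membrane collagen on chromosome 13 (110385608 to 110446670), 7 peaks had 51, 10, 51, 19, 21, 13 and 18 tags. The first 3 summits, both tall ones among them, lay within 0.425 kb of each other, and the input level was 1.00 at every member. TFAP2A, a transcription factor of epithelium on chromosome 6 (10402844 to 10441292), had 6 peaks at 16, 22, 22, 19, 54 and 17 tags, the tall one with a fold enrichment of 14.6 and 5 of the 6 inside the gene.

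In the cluster of ECSCR, SMIM33 and STING1, the last an adaptor of the response to cytosolic DNA, 6 peaks on chromosome 5 (139457730 to 139512056) had 40, 61, 16, 17, 19 and 50 tags. ARF3, a small GTPase, and WNT10B, a WNT ligand, shared a cluster on chromosome 12 with 28, 48, 15, 31 and 15 tags. TMCC2 had 44, 26, 35, 17 and 53 tags, and RASSF5, a Ras effector, together with the initiation factor gene EIF2D had 52, 35, 24, 17, 27, 15 and 17, both on chromosome 1. ARHGAP39, a GTPase-activating protein on chromosome 8, had 65, 45, 26 and 35 tags, and here the peak of 45 tags sat on an input level of 6.26 with a fold enrichment of 3.11.

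A further 3 tall clusters lay outside protein-coding genes. The one 65.5 kb from KLF7, a zinc-finger transcription factor, had 21, 50, 15 and 19 tags within 4.46 kb and overlapped the noncoding MYOSLID. The one 78.8 kb from MRPL14 had 17, 46, 16 and 49 tags and overlapped the noncoding SCIRT. The one 36.4 kb from PTK2, the focal adhesion kinase, had 17, 34, 49 and 40 tags within 4.90 kb. Among the tallest peaks of the KLF7, MRPL14 and PTK2 clusters the input level was 1.67, 1.00 and 1.98.

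Of the clustered summits, 506 (47.2%, 44.2 to 50.2) were inside a protein-coding gene, beside 47.4% of others, and 80.3% beside 77.6% lay within 50 kb of one. Fewer lay within 1 kb of a transcription start, 41 (3.82%, 2.83 to 5.15) beside 725 (5.82%, 5.42 to 6.25). By cluster, the span of 171 (59.4%) overlapped a protein-coding gene, while 51 lay over 50 kb and 28 over 100 kb from one. The share by span is a looser measure than that of summits inside genes. Inside long noncoding RNA genes lay 14.3% of clustered summits (12.3 to 16.5) and 17.1% of others (16.4 to 17.7). Such genes were overlapped by 81 clusters, 16 of them among those over 50 kb from a protein-coding gene.

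Clustered peaks lay in or within 5 kb of 216 of 20037 protein-coding genes (1.08%). ERGIC1 and PLEC had 10 each, DLG5 and NAV2 had 9, COL4A2 and RASSF5 had 7. NAV2, a large gene of 776366 bp, had 16 peaks in all, so 7 were not clustered, whereas all 10 of PLEC and all 10 of ERGIC1 were. Of the genes with 6 clustered peaks, LAMA5 encodes a laminin chain, EPHA2 an ephrin receptor and CSF1 the macrophage growth factor. NAV2, LAMA5, EPHA2 and CSF1 were chosen after their values were seen. EPHA2 had a cluster at 39, 15, 14, 21, 17 and 16 tags with input levels of 1.00 to 1.36. CSF1 had one at 17, 13, 13, 21, 23, 22 and 14 tags.

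The 9 lists of genes with roles in these cells, 125 genes in all, held 9 genes with a clustered peak (7.20%). The intervals of single lists were wide, as the plot of gene lists shows, with lower bounds from 0 to 10.8% beside the 1.08% of all protein-coding genes. The lists were not matched to all genes on length, so nothing particular to a list is read from these shares.

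**Figure D3:**
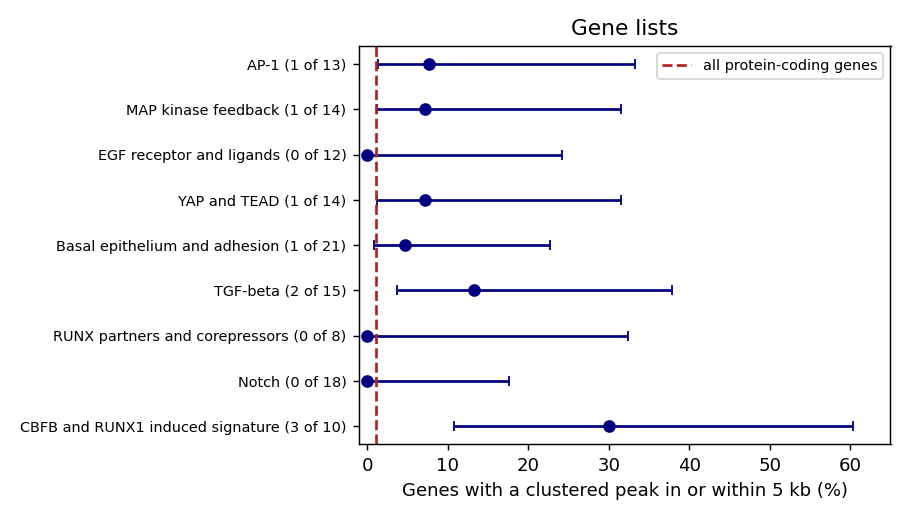
Share of genes with a clustered RUNX1 peak in or within 5 kb (horizontal axis, percent) for 9 gene lists; points are shares, bars are 95% Wilson intervals, and the dashed line is the 1.08% of all protein-coding genes. The lower bounds of the TGF-beta list, 3.74%, and of the signature, 10.8%, lie farthest right, and 3 lists have 0 genes with a clustered peak.

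Of the MAP kinase feedback genes, which dampen growth factor signalling, 1 of 14 had clustered peaks. This was DUSP1, with 22, 19, 37 and 24 tags in or near the gene and 2 more cluster members beyond it, at 23 and 15 tags, with input levels of 1.41 to 1.67 on the raised segment of chromosome 5. Of AP-1 subunits and relatives, 1 of 13 had them: FOSL1, a Fos family protein common in basal breast cells, with 16 and 11 tags. YAP and TEAD genes, which carry Hippo pathway signals, gave 1 of 14. AMOTL2, an angiomotin that binds YAP, had 18 and 16 tags at the end of a 7-peak cluster of 12 to 26 tags.

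Among TGF-beta genes 2 of 15 had clustered peaks. SMAD3, the signal carrier, had 23, 22 and 13 tags out of 9 peaks in all, and TGFBI, an extracellular matrix protein, had 1 peak of 18 tags. Of 21 genes of basal epithelium and adhesion, 1 did: LAMB3, the beta chain of laminin-332, with 23, 25, 21 and 34 tags and a median input level of 2.09 on the raised segment of chromosome 1. No gene of 12 for the EGF receptor and its ligands (interval to 24.2%), of 8 RUNX partners and corepressors (to 32.4%) or of 18 Notch genes (to 17.6%) had a clustered peak, although 4, 4 and 8 of them had a peak of some kind. The share of all protein-coding genes with a peak of some kind is not given here, so nothing is read from these counts.

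The study picked 10 signature genes out of those induced by CBFB and RUNX1 in its RNA measurements. It settled on these 10 because they predicted the survival of patients best. Clustered peaks lay at 3 of the 10, with an interval of 10.8 to 60.3%. DMBT1, a mucosal scavenger receptor, had 19, 30, 12 and 16 tags at an input level of 1.00. FHOD3, a formin that assembles actin, had 23, 14, 24 and 23 tags out of 9 peaks in all. At 4 other signature genes there was a peak but no cluster, a count that also has no share of all genes beside it.

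Other clusters, chosen after their values were seen, lay at printed loci or in the epidermal differentiation complex of chromosome 1, a group of genes active in squamous epithelium. The IVL cluster, whose promoter is printed above, had 18, 23, 19 and 19 tags with input levels of 1.42 to 2.50. The S100A12 and S100A8 cluster had 39, 19, 18 and 20 tags with input levels of 1.40 to 2.50. The FKBP5 cluster on chromosome 6, also printed above, had 21, 14, 22 and 12 tags at input levels of 1.00 to 1.05.

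Small RNA genes were more common under clustered peaks than under others. A summit was within 100 bp of a tRNA, rRNA or snRNA gene for 64 clustered peaks (5.97%, 4.70 to 7.55) and 99 others (0.795%, 0.653 to 0.967). For tRNA genes, which RNA polymerase III transcribes, the counts were 42 (3.92%) and 82 (0.658%), for rRNA genes 15 and 1, and for snRNA genes 7 and 16. Read the other way, 42 of the 124 peaks at tRNA genes were clustered (33.9%, 26.1 to 42.6), beside 7.54% of peaks at none of these genes. These genes lie in groups along chromosomes, so peaks at them meet a rule on distance more easily, and this was not corrected for.

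The largest cluster of all was of this kind. It reached into RHOU on chromosome 1 (228610290 to 228646043), in the array of 5S rRNA genes, and each of its 15 peaks was at 1 of the 17 rRNA genes there. The pileups ran from 33 to 48 tags, with a median of 38. The input level ran from 4.33 to 7.93 and the fold enrichment from 2.11 to 4.43, so these were tall peaks over a tall background. The second largest had 11 peaks on chromosome 5 (181173741 to 181222433), and its span crossed TRIM7. Of these peaks 0 were inside a protein-coding gene and 10 were at tRNA genes. Pileups in this cluster were 11 to 24 tags and input levels 1.11 to 2.09.

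The other small RNA clusters, chosen after their values were seen, ran from tall to low. Near FCGR2A on chromosome 1, beside 17 tRNA genes, 4 peaks had 40, 46, 42 and 33 tags on input levels of 5.84 to 7.93. Near OSBP on chromosome 11, 4 peaks, all at tRNA genes, had 14, 16, 14 and 14 tags on input levels of 1.00 to 1.25. The 5 peaks at CTC1, 4 of them at tRNA genes, were as low, at 12 to 17 tags. Near CCDC200 on chromosome 17, 4 of 5 peaks were at snRNA genes, with 10 to 16 tags, and the remaining peak, at no such gene, had 45 tags on an input level of 5.01. The median fold enrichment of clustered peaks at small RNA genes was 4.23 (maximum 6.59) beside 5.21 for other clustered peaks. A fold enrichment of at least 10 was reached by 0 of 64 (interval to 5.66%) and by 41 of 1008 (4.07%), so these shares are not far apart. Without peaks at these genes 989 peaks were clustered, in 272 clusters.

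One cluster at the start of chromosome 5, also chosen after its values were seen, had 5 summits within 1.25 kb, at 10384 to 11632, with 23 to 29 tags and a median input level of 3.34.

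Clusters gathered on the 3 chromosome segments with a raised input level. These were defined from the input level of all peaks in bins of 10 Mb and were chromosome 1 from 140 Mb, chromosome 5 from 120 Mb and chromosome 8 from 100 Mb, with median input levels of 1.67, 1.56 and 1.61. They held 269 clustered peaks (25.1%, 22.6 to 27.8) and 1413 others (11.3%, 10.8 to 11.9). On these segments 16.0% of peaks were clustered (14.3 to 17.8), elsewhere 6.78% (6.34 to 7.25). Members of 1 cluster lie together, so these intervals by peak are too narrow. By cluster, 32 were on the segment of chromosome 1, 20 on that of chromosome 5 and 13 on that of chromosome 8, together 65 of 288 (22.6%). Of the 12 largest clusters 5 lay there, and of the 12 tallest 6.

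Height and background moved together, which the method partly builds in. The input level is computed from the pileup, and a peak over a higher background needs more tags to be called. Clustered peaks on the raised segments had a median pileup of 23 tags, a median fold enrichment of 4.76 and a median input level of 1.67, and those elsewhere had 18, 5.31 and 1.08. Other peaks on the segments were also taller, at 21 tags beside 17, with fold enrichments of 4.79 and 5.06. Whether the input level has a part in the density of peaks was not tested. Leaving out the segments gave 803 clustered peaks in 223 clusters.

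**Figure D4:**
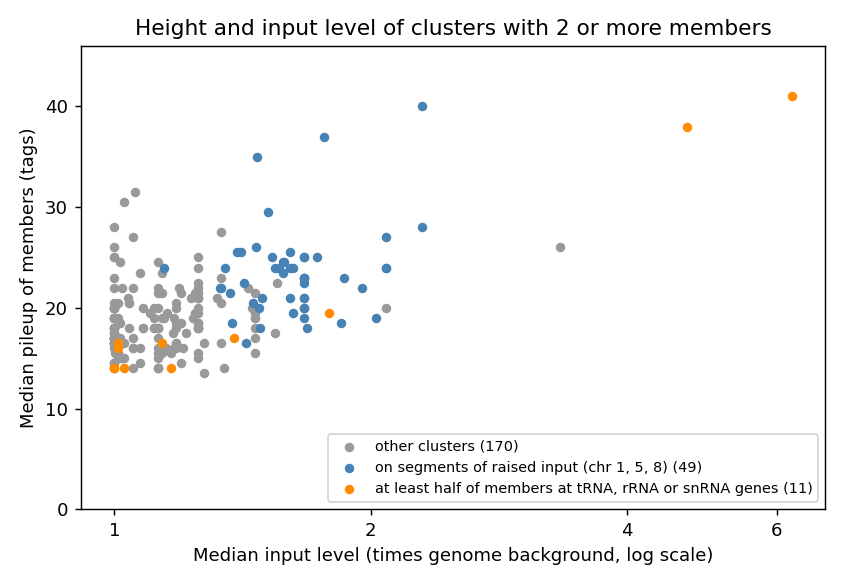
Median pileup of the members (vertical axis, tags) against their median input level (horizontal log axis, times genome background) for each of the 230 clusters with at least 2 members; blue points lie on the raised segments of chromosomes 1, 5 and 8, orange points have no fewer members at small RNA genes than elsewhere, and grey points are the rest. The 49 blue points sit to the right of most grey ones, and 2 orange points, the 5S rRNA array and the tRNA genes near FCGR2A, lie farthest right at 4.71 and 6.25 times background.

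By number of neighbours, the share of peaks at small RNA genes was 0.720% with none, 1.20% with 2, 3.41% with 3 and 15.6% with 5 or more. The share on raised segments was 10.1%, 13.5%, 22.3% and 35.4% in the same order. The share within 1 kb of a start was 6.37%, 4.46%, 4.19% and 2.08%. The plot of these shares by number of neighbours shows that the interval for 5 or more does not overlap that for 2 in the first pair of panels and does in the last. These intervals treat peaks of 1 cluster as independent, so nothing is read from their overlap. The first 2 traits shared loci. Of the 64 clustered peaks at small RNA genes, 38 lay on raised segments. With 5 or more neighbours, 30 peaks lay at small RNA genes and 68 on raised segments. Both counts include the 15 peaks of the 5S rRNA array. Of the 1008 clustered peaks at no small RNA gene, 231 (22.9%) lay on raised segments. By chromosome, leaving out Y with its single unclustered peak, the share of clustered peaks ran from 1.98% on chromosome 4 (12 of 605) to 14.8% on chromosome 8 (100 of 675), with chromosome 17 at 12.6% and chromosome 1 at 12.4% (190 of 1529).

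**Figure D5:**
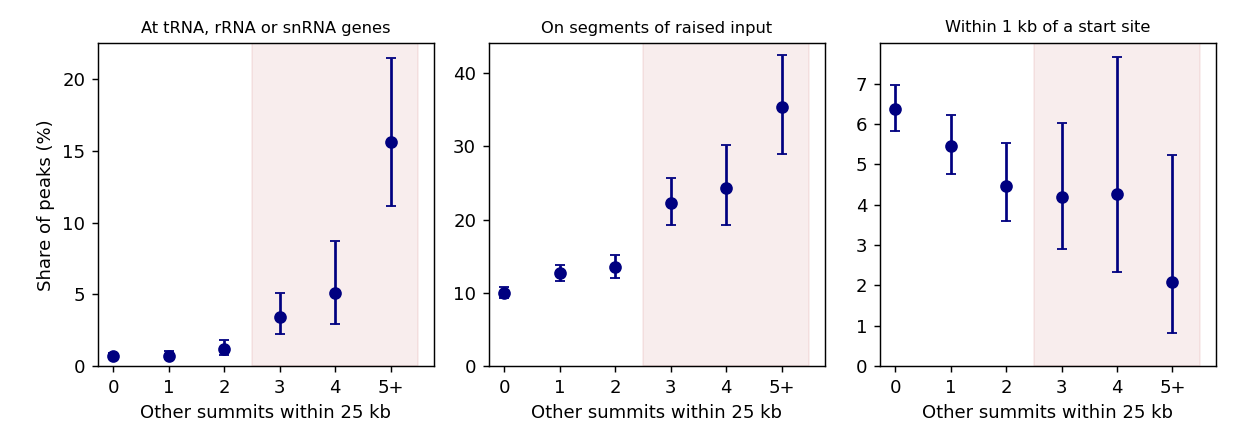
Share of peaks (vertical axes, percent) at tRNA, rRNA or snRNA genes, on segments of raised input, and within 1 kb of a transcription start, by number of other summits within 25 kb; points are shares, bars are 95% Wilson intervals and shading marks clustered peaks. The first 2 shares are highest in the group with 5 or more neighbours and the share near a start is lowest there, 2.08%.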

How the data were processed

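RUNX1 ChIPseq and input DNA were each 1 library of doxycycline-induced MCF10A cells, assigned by the antibody in the labels. The submitters' processing notes name Bowtie2 and hg38. Per the file headers, the authors called peaks with MACS 2.1.2 at a q of 0.05, extending tags to 74 bp, taking the genome as 2.7 Gb and keeping 1 tag for each position and strand, which caps the pileup at 148. The duplicate limit removed 10.2% of 89501295 ChIP tags and 7.68% of 94686274 input tags. The deposited pileup is a signal, counted in extended tags at the summit. The fold enrichment deposited by the authors is a ratio, pileup plus 1 over local background plus 1. Their deposited q-value stands as −log10 after adjustment by MACS.

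From these, the input level was recovered as (pileup + 1) / fold − 1, divided by the genome background of 2.20 tags. MACS takes the larger of several backgrounds, so no level falls below 1. Gene positions, starts and sequences came from RefSeq (GRCh38.p14), which holds no exons here, so exonic and intronic peaks were not told apart. Small RNA genes count within 100 bp of a summit. A raised 10 Mb bin had at least 10 peaks, 90% of them with an input level over 1.1. Motifs were searched on both strands. Counts were made in Python 3.11.15 with pandas 2.3.3 and scipy 1.17.1 and checked on simulated positions.

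Named genes are those in or nearest to the 12 clusters with the most members (ties to the shorter span), those of the 12 with the tallest member, and genes of the lists with a clustered peak in or within 5 kb. Others were chosen after their values were seen. The members and lists were chosen with earlier results of these data known. No test was made because the rule used positions from the same comparison and there was no replicate. Of 125 list genes, 2 were matched through an older symbol. A further gene of the signature list with a clustered peak is counted but not reported here.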

Additional observations from a re-analysis of the deposited data

How the results depend on the processing

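The 8 results were recomputed under 65 alternatives, and 29 stayed within the limits for little change. These limits differed between results and were wide for counts. Little change covers the fall from 1072 to 803 clustered peaks and from 288 to 223 clusters without the raised segments. It also covers the fall from 216 to 177 genes with the gene interval alone. A median pileup of 20 instead of 19 tags counted as moved. The number of clustered peaks moved from 1072 to 382 with a window of 10 kb, 2361 with 50 kb, 2821 with at least 2 other summits, 427 with at least 4, 156 with a fold enrichment of at least 5, 556 with peaks within 1 kb joined and 484 with an input level of at most 1.5. The number of clusters moved from 288 to 105, 568, 869, 101, 46, 177 and 142 under the same settings, in that order. Genes with a clustered peak moved from 216 to 74, 553, 703, 74, 25, 133 and 95, and to 542 with a distance of 50 kb to the gene. The median pileup was 20 tags with 10 kb, at least 4 others or joined peaks, 22 with a fold enrichment of at least 5, and 17.5 with an input level of at most 1.5. The share inside genes was 43.3% with at least 4 others and 37.2% at a fold enrichment of at least 5. The share within 1 kb of a gene end, 5.69%, was 1.28% at a fold enrichment of at least 5, 4.34% at an input level of at most 1.5 and 19.7% with 5 kb. The share of promoters with the motif, for genes with a clustered peak, was 4.08% for TGTGGTT and 6.46% for TGCGGT, and for promoters holding a clustered summit 21.7% and 0%. The settings for small RNA genes, raised segments, TGCGGT and promoters holding a summit were chosen after seeing the data. The cause of these changes was not tested beyond the settings' own construction.

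Of the 12 largest clusters, 7 still held clustered peaks at a fold enrichment of at least 5 and 9 at an input level of at most 1.5. The planned search for the motif at all summits was not run, since no genome sequence was at hand. No paired analysis was possible because there was 1 library of each kind. Pileups of 10 to 65 tags limit the precision of every height.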
